A study of Mus musculus with 12 samples.

Results

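The cytosolic ribosomal protein genes encode the proteins of the ribosome that works outside the mitochondria. They were taken by symbol, as Rpl or Rps followed by a digit, Rplp0, Rplp1, Rplp2 or Rpsa, leaving out the S6 kinases, Rps27l, Rps19bp1 and symbols named as pseudogenes, and they needed a mean of at least 1 TPM over the 12 libraries. Of 24411 symbols, 104 matched the pattern, 18 were left out by name and 84 of the remaining 86 reached that mean. The other 2 were Rpl3l, a form of the protein known from muscle, and Rpl39l, a form known from the testis, and both were listed at 0 in every library. Rpl10l with a mean of 2.16 TPM and Rpl37rt with 4.70 TPM lay just above the minimum. The 84 genes were 43 proteins of the large subunit, 3 proteins of its stalk, 31 proteins of the small subunit and 7 paralogues or like-named copies (Rpl7l1, Rpl10l, Rpl22l1, Rpl36al, Rpl37rt, Rps4l and Rps27rt).

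RNA was sequenced from NR5A1(+) cells of fetal mouse gonads, and the deposited values are TPM, the share of each gene's transcripts in its library after division by transcript length, so that every library has the same total and genes can be compared with each other. Dfo XY gonads (n = 3) were taken at E10.8 together with the aorta, mesonephros and mesenchyme and kept for 19.2 h in high-glucose DMEM with 10% horse serum and 150 µM Dfo, the iron chelator deferoxamine. Control XY gonads (n = 3) and control XX gonads (n = 2) had the same culture without Dfo. The gonads of E11.5 embryos, XY (n = 2) and XX (n = 2), are titled wild type, although the culture protocol is attached to their labels too, so how they were collected is not settled by it. All 5 groups carry the Nr5a1-hCD271 genotype, a surface tag under the Nr5a1 gene, a gene expressed in the somatic cells of the gonad. Nothing in the labels says that replicates came from separate embryos, and the p-values then cover only how these libraries vary, which may be technical.

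A ribosome is built from ribosomal RNA and a copy of nearly every ribosomal protein, and the genes of these proteins sit among the most expressed genes of any dividing cell. Their mRNAs begin with a cytosine followed by a run of pyrimidines, the terminal oligopyrimidine or TOP motif, through which the kinase mTOR and the RNA-binding protein LARP1 control their translation and stability. Low oxygen and iron chelation are known to lower mTOR activity, in part through the inhibitor gene Ddit4, and such control acts on translation, which RNA-seq does not measure.

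Some libraries stood apart before any group was compared. Control XY replicates 1 and 2 differed by a median of 0.04 on the log2 scale over the 84 genes, and Dfo XY replicates 1 and 2 by 0.06, while the third library of each group differed from these by 0.18 to 0.20. The X-inactivation RNA Xist stood at 13.6 and 24.6 TPM in Dfo XY replicates 1 and 2, at 0.28 TPM in Dfo XY replicate 3 and at 165.8 to 174.8 TPM in control XX. Rpph1, the RNA of RNase P, took 19.5% to 23.6% of all TPM in Dfo XY, 15.3% to 20.3% in control XY, 6.96% and 7.20% in control XX, 12.2% and 12.02% in E11.5 XY, and 8.57% and 11.47% in E11.5 XX. Markers of blood also differed. The sum of 12 erythroid genes ran from 1390 to 3224 TPM in Dfo XY, from 333.1 to 2543 TPM in control XY, from 242.7 to 270.6 TPM in control XX, from 2604 to 3375 TPM in E11.5 XY and from 1333 to 1855 TPM in E11.5 XX, and Hbb-bs was at 0 in all 8 cultured libraries. The 10 gonad somatic markers summed to 915.7 to 1030 TPM in Dfo XY, 1191 to 1433 TPM in control XY, 2291 to 2363 TPM in control XX, 1461 to 1644 TPM in E11.5 XY and 1824 to 2072 TPM in E11.5 XX, with none at 0. In such mixed samples fewer cells of a type and less RNA per cell cannot be told apart, and the part of these markers in the results below was not tested.

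The ribosomal protein genes made up 11.3%, 11.6% and 11.8% of all TPM in Dfo XY, 11.96%, 11.97% and 12.7% in control XY, and 11.2% and 11.3% in control XX. They made up 14.2% and 13.9% in E11.5 XY and 12.2% and 13.8% in E11.5 XX. The Dfo libraries lay below the control XY libraries without overlap, and E11.5 XY stood highest. With Rpph1 taken out of the total the shares were 14.7%, 15.1% and 14.6% in Dfo XY against 14.8%, 15.03% and 15.05% in control XY, which overlapped. On that scale control XX was lowest of the 5 groups, with 12.1% in each library.

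**Figure D1:**
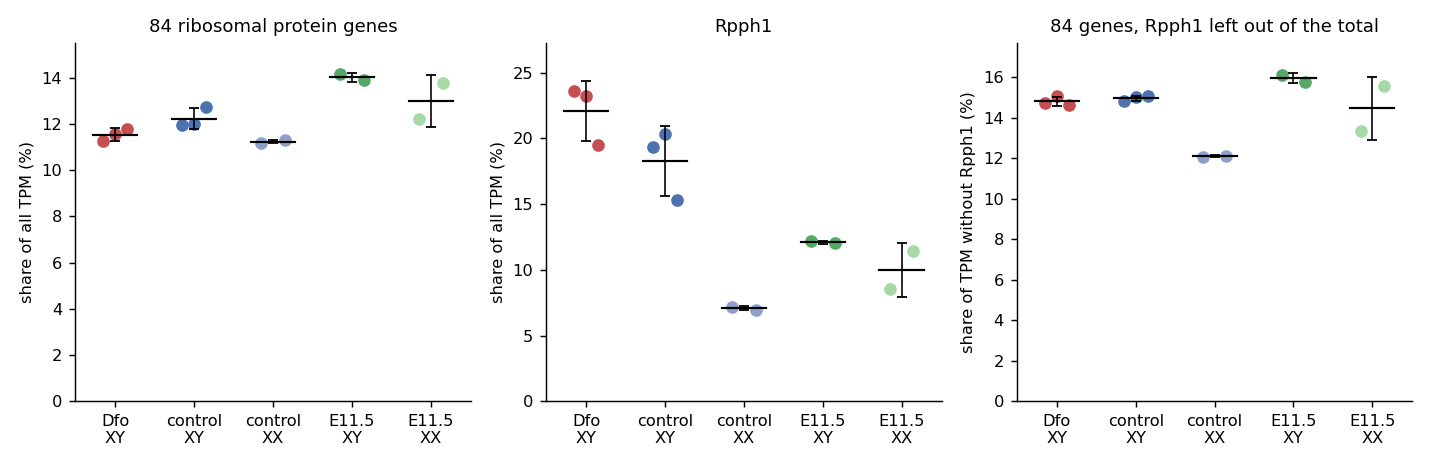
Share of all TPM held by the 84 ribosomal protein genes (left), share held by Rpph1 (middle) and share of the 84 genes once Rpph1 is left out of the total (right), in percent; each point is 1 library, the line is the group mean and the bar its SD. The Dfo XY libraries lie below control XY at 11.3% to 11.8% on the left and overlap them at 14.6% to 15.1% on the right, where both control XX libraries lie lowest at 12.1%.

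Levels were high for most of the proteins. Of the 84 genes, 73 had a mean of at least 500 TPM and 47 were among the 100 symbols with the highest mean, and the median gene had a mean of 1288 TPM. Rps23, a small-subunit protein at the decoding centre, was highest with a mean of 5352 TPM, and among the other high genes were Rps26 at 4824 TPM, the stalk protein gene Rplp2 at 4054 TPM and Rpl23a at 3998 TPM. Rps15a had the lowest mean of the 77 core proteins, 72.4 TPM.

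Near-identical copies limit what a value under some of these symbols means, because short reads from 2 identical sequences cannot be told apart. Aligned against the annotated transcripts, 15 of the 84 genes had another symbol of at least 95% identity over at least 80% of the coding sequence, and 69 had none. For 5 of the 15 the copies held over 10% of the gene's own level. Rpl26 had a mean of 1133 TPM beside 3643 TPM under Gm15772, Rpl34 had 1166 TPM beside 1509 TPM under Rpl34-ps1, and Rpl30 had 208.9 TPM beside 930.1 TPM under Gm12191. The other 2 were Rps27, a small-subunit protein with a zinc-binding fold (chr3:90212522-90213651, mm10, minus strand), and its retrogene Rps27rt (chr9:114982366-114982739, minus strand). Both share the same 255 bases of coding sequence in GENCODE M21, with 0 differing bases, shown here because it sets how their values can be read.
Rps27 and Rps27rt: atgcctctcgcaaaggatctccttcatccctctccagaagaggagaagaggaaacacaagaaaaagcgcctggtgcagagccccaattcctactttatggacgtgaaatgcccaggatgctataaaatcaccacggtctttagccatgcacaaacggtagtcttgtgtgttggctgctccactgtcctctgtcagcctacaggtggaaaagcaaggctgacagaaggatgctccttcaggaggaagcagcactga

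The TPM listed under this pair moved between the 2 symbols from library to library. Rps27 stood at 1513, 2007 and 399.8 TPM in Dfo XY, 1669, 1657 and 582.9 TPM in control XY, and 810.1 and 1077 TPM in control XX. It stood at 7.38 and 9.68 TPM in E11.5 XY and at 673.3 and 15.7 TPM in E11.5 XX. Rps27rt was the mirror image, with 1103 and 938.0 TPM in E11.5 XY and 269.0 and 1116 TPM in E11.5 XX. It held 16.0%, 0% and 66.8% of the pair in Dfo XY, 15.6%, 11.7% and 40.9% in control XY, 15.9% and 0% in control XX, 99.3% and 99.0% in E11.5 XY, and 28.5% and 98.6% in E11.5 XX. The pair together was steadier, with 1206 to 2007 TPM in Dfo XY, 985.6 to 1977 TPM in control XY, 963.0 and 1077 TPM in control XX, 947.6 and 1111 TPM in E11.5 XY, and 942.2 and 1131 TPM in E11.5 XX. The difference of the sum is therefore given for the comparisons of either symbol below.

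**Figure D2:**
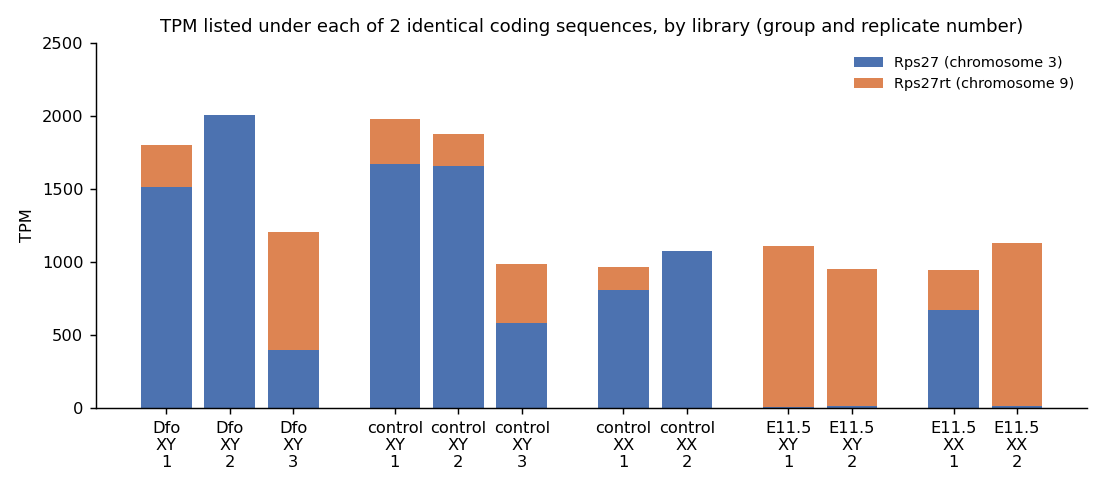
TPM listed under Rps27 (blue) and Rps27rt (orange), stacked, for each of the 12 libraries, labelled by group and replicate number. The orange part holds 99.3% and 99.0% of the bar in E11.5 XY and none of it in Dfo XY replicate 2 and control XX replicate 2, while the whole bars stand between 942.2 and 2007 TPM.

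Most of the other paralogues differed more from the gene they are named after. Rps4l (chr6:148354656-148355598, plus strand) is annotated as a transcribed processed pseudogene of the small-subunit protein gene Rps4x (chrX:102184941-102189394, minus strand), and it keeps 632 of the 792 coding bases of Rps4x, or 79.8%. The first 90 bases of the coding sequence of Rps4x and the matching bases of Rps4l differ at 15 positions, given in capitals, so that most short reads can be placed.
Rps4x: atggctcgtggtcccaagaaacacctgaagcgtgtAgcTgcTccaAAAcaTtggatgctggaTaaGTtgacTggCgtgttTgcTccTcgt
Rps4l: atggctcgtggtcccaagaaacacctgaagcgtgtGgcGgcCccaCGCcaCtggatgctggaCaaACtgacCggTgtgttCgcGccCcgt
Rpl36a and Rpl36al were 87.8% identical, Rpl10 and Rpl10l 84.8%, and Rpl22 and Rpl22l1 74.6% over the 77.0% of the sequence that could be aligned. Rpl37rt is 99.7% identical to Rpl37, so the values of the pair are uncertain, and it was listed at 1.88 to 10.2 TPM, beside 741.6 to 1251 TPM for Rpl37.

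The starts of these genes were read from RefSeq promoters on GRCm38.p6, which held 63 of the 84 genes. A cytosine followed by at least 4 pyrimidines stood at an annotated start of 14 of the 63 genes (22.2%), against 2.81% of 17224 genes, and within 5 bases of a start of 29 genes (46.0%), against 21.7%. Among the genes described below, Rplp0, Rpl5, Rpl11, Rpl36a and Rps4x had no such tract within 5 bases. The 5 starts shown all come from the 14 genes with a tract at an annotated start. Each has 10 bases before and 20 from that start, with the tract in capitals: Rpl14 at chr9:120571507-120571536 (plus strand), Rpl28 at chr7:4792955-4792984 (plus), Rps6 at chr4:86857348-86857377 (minus), Rps27 at chr3:90213629-90213658 (minus) and Rps27rt at chr9:114982720-114982749 (minus).
Rpl14: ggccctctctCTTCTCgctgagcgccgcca
Rpl28: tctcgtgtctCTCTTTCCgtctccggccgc
Rps6: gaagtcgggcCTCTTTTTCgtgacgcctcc
Rps27: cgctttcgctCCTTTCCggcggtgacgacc
Rps27rt: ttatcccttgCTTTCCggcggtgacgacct
Over the 250 bases before to 50 bases after the start, on either strand, CCGGAAG, which ETS family factors bind, stood in 24 of 63 genes (38.1%) against 12.8% of all genes, and AAGATGG, a core of the YY1 site, in 10 (15.9%) against 7.34%. CACGTG, the E-box of MYC, stood in 6 (9.52%) against 9.17%, and ACGTG, the core of the hypoxia response element, which CACGTG contains, in 19 (30.2%) against 23.6%. A match is a description of the letters and not a bound site.

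The main comparison asked what iron chelation did to these mRNAs in XY gonads. Few of the ribosomal protein genes were called, beside many other genes of the same cells. By limma, with adjustment over 16133 genes and a call at an adjusted p below 0.05, 0 of the 84 genes rose, where 4.98% of all genes rose, and 2 fell, where 10.5% of all genes fell. The genes that fell were Rps4l and Rpl14. The median difference was -0.08 on the log2(TPM + 1) scale for the 84 genes and -0.17 for all genes tested, and 8 of the 84 had an unadjusted p below 0.05, against 29.5% of all genes. With median-of-ratios scaling the median of all genes was -0.05 and that of the 84 genes 0.07, and with quantile normalization they were -0.03 and 0.05, so the sign of the small differences depends on the scaling. With median-of-ratios scaling 1 of the 84 genes rose, where 9.42% of all genes rose, and 1 fell, where 6.35% of all genes fell. These were Rpl15, which rose by 0.25 (limma, adjusted p = 0.0283), and Rps4l. Averaging the near-identical replicates 1 and 2 of both groups left 0 higher and 1 lower, which was Rps4l. The same count stood when control XY replicate 1 or 3, or Dfo XY replicate 1 or 2, was left out.

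Rps4l was lower in every Dfo library. It had 89.2, 87.1 and 87.0 TPM in Dfo XY, against 157.3, 161.4 and 155.6 TPM in control XY. The 2 groups do not overlap, and the libraries within each lie within a few TPM of each other. The difference was -0.84 ± 0.08 (SE), or 1.79 times lower (limma, adjusted p = 2.1e-05), and it held in all 25 alternatives, with an adjusted p between 2.02e-05 and 0.00232. Control XX had 170.1 and 171.9 TPM, E11.5 XY 165.3 and 182.2 TPM and E11.5 XX 212.2 and 188.1 TPM, all above Dfo XY. Its parent gene Rps4x had 830.8, 766.0 and 1044 TPM in Dfo XY, against 892.6, 890.1 and 1098 TPM in control XY, which overlap (difference -0.13 ± 0.12, limma, adjusted p = 0.513). Rps4l therefore stood at 0.08 to 0.11 of the level of Rps4x in Dfo XY and at 0.14 to 0.18 in control XY. Its locus lies across Tmtc1 on the opposite strand, which had a mean of 2.20 TPM, and the sources used here do not say whether the counting used strand.

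Rpl14, a large-subunit protein, had 572.4, 560.1 and 611.3 TPM in Dfo XY, against 694.0, 673.6 and 847.0 TPM in control XY. The groups do not overlap, and control XY replicate 3 is the highest. The difference was -0.34 ± 0.10 (SE) (limma, adjusted p = 0.0316), and over 25 alternatives the adjusted p ran between 0.0176 and 0.361. By limma, the call ended without control XY replicate 1 (adjusted p = 0.0536) or 3 (0.0765) and without Dfo XY replicate 1 (0.0955) or 2 (0.113). It also ended with median-of-ratios scaling, where the difference was -0.19 (limma, adjusted p = 0.146).

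**Figure D3:**
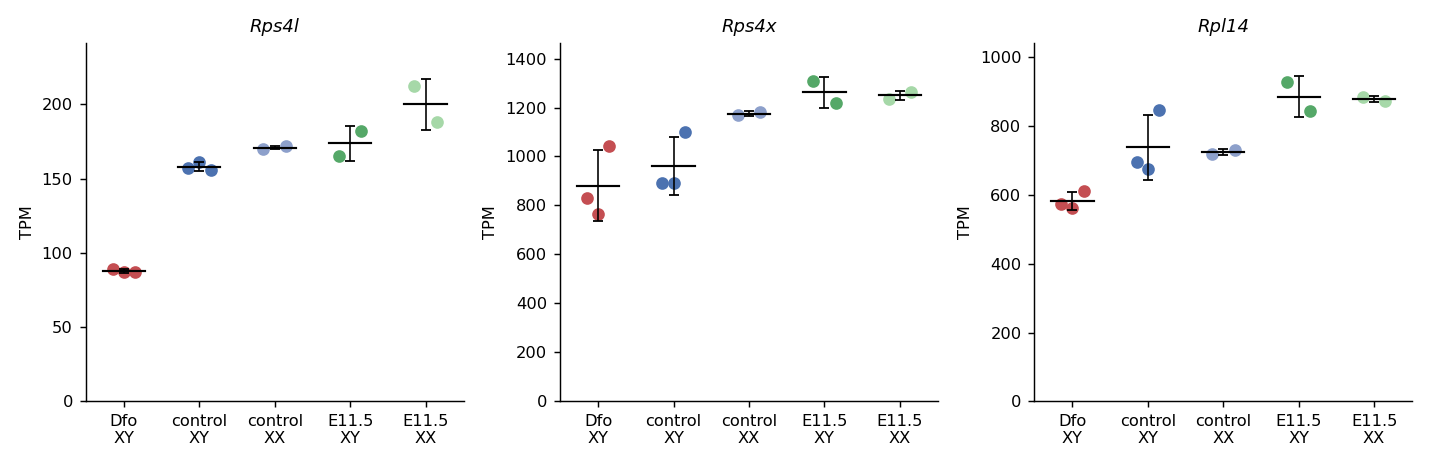
TPM of Rps4l, Rps4x and Rpl14 in the 5 groups; each point is 1 library, the line is the group mean and the bar its SD. Rps4l stands at 87.0 to 89.2 TPM in Dfo XY, below the libraries of every other group, while Rps4x overlaps between Dfo XY and control XY and Rpl14 does not.

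The replicate numbers of Dfo XY and control XY were taken to pair the libraries, since same-numbered libraries deviated together. Replicates 1 and 2 did so across unlike numbers too, so a pairing by number is not settled. With the replicate number as a block, 7 of the 84 genes fell and 0 rose, where 16.6% of all genes fell and 7.26% rose. These were Rps4l, Rpl14, the large-subunit genes Rpl21, Rpl30 and Rpl36a, and the small-subunit genes Rps15 and Rps15a, with differences between -0.19 and -0.84. Over all 84 genes, 20 were lower in each Dfo XY library than in any control XY library and 0 were higher, where 26.5% and 11.6% of all genes tested were so.

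Within the large subunit, 42 of 43 genes did not pass the test, and the median difference was -0.08 with a range of -0.53 to 0.09. Rpl30, a protein that also binds its own pre-mRNA in yeast, was at the lower end with 74.2, 106.2 and 158.8 TPM in Dfo XY, against 122.8, 140.2 and 220.5 TPM in control XY (difference -0.53 ± 0.29, limma, adjusted p = 0.258). Summed with its copy Gm12191 it differed by -0.04 ± 0.12 (limma, adjusted p = 0.879). Rpl5 and Rpl11, which bind the 5S RNA and can hold the p53 inhibitor MDM2, had differences of 0.03 ± 0.11 and 0.00 ± 0.14. Rpl36a had 1159, 1267 and 1674 TPM in Dfo XY, against 1486, 1505 and 1885 TPM in control XY, a difference of -0.26 ± 0.14. Rpl10, a late-joining protein next to the peptidyl transferase centre, differed by 0.09 ± 0.10, Rpl22 by -0.10 ± 0.15 and Rpl23a by -0.12 ± 0.13, and the libraries of Rpl37 and Rpl7 overlapped between the groups.

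The stalk proteins recruit elongation factors. Rplp0 had a mean of 1840 ± 82.7 TPM in Dfo XY and 1913 ± 128.3 TPM in control XY (SD, n = 3 each), a difference of -0.06 ± 0.09. Rplp2 had a difference of -0.07 ± 0.10. Rplp1 had 2715, 2842 and 2943 TPM in Dfo XY, against 3271, 3171 and 3386 TPM in control XY, which do not overlap, and the difference of -0.21 ± 0.12 did not pass (limma, adjusted p = 0.281).

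In the small subunit 0 of 31 genes passed, the median difference was -0.08 and the range ran from -0.23 to 0.15. Rps23, the most abundant, had 5384, 5328 and 4960 TPM in Dfo XY, against 5871, 5767 and 5830 TPM in control XY. These do not overlap, and the difference of -0.16 ± 0.11 did not pass (limma, adjusted p = 0.388). Rps6, the substrate of S6 kinase, had 918.6, 941.9 and 992.0 TPM in Dfo XY, against 986.8, 991.2 and 1144 TPM in control XY, which overlap at their edge (difference -0.13 ± 0.09, limma, adjusted p = 0.365). Rps27a, made as a fusion with ubiquitin, differed by -0.06 ± 0.09, Rpsa, also known as the laminin receptor, by -0.11 ± 0.09, and Rps26 by 0.15 ± 0.12. Rps15a had 58.2, 64.2 and 71.0 TPM in Dfo XY, against 72.5, 73.0 and 81.0 TPM in control XY, a difference of -0.23 ± 0.10 (limma, adjusted p = 0.133). Summed over genes, the small subunit held 0.742, 0.745 and 0.750 of the TPM of the large subunit and stalk in Dfo XY, against 0.726, 0.729 and 0.719 in control XY, so the ratio was higher in each Dfo library.

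Of the 7 paralogues and copies, Rps4l fell and the other 6 did not pass. Rpl7l1, a nucleolar relative of Rpl7, had 46.2, 43.0 and 48.5 TPM in Dfo XY, against 51.2, 52.9 and 67.5 TPM in control XY, which do not overlap (difference -0.30 ± 0.13, limma, adjusted p = 0.14). Rpl22l1 differed by 0.23 ± 0.21, and Rpl36al held 28.8% to 34.3% of the sum of Rpl36a and Rpl36al in Dfo XY and 27.5% to 29.0% in control XY. Rps27 and Rps27rt together differed by 0.08 ± 0.24 (limma, adjusted p = 0.852). Rpl37rt and Rpl10l were listed at 0 to 10.2 TPM in these libraries.

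The regulators and partners of these genes were described from lists written with earlier results of these data known. Their counts stand beside the same shares of all genes, 4.98% higher and 10.5% lower. Of 26 genes of mTOR signalling and TOP control, 8 rose and 2 fell. The mTOR inhibitor gene Ddit4 had a mean of 114.8 ± 16.8 TPM in Dfo XY and 23.0 ± 5.23 TPM in control XY (SD, n = 3 each), a difference of 2.28 ± 0.22. Sesn2, which restrains mTOR when amino acids are short, rose by 1.77 ± 0.15, to 65.0 ± 2.63 TPM in Dfo XY, against 18.4 ± 1.996 TPM in control XY. Eif4ebp1, the translation repressor that mTOR switches off, rose by 1.47 ± 0.11, Myc by 1.43 ± 0.15 and the MYC antagonist Mxi1 by 1.38 ± 0.13. Mtor itself differed by -0.28 ± 0.12 (limma, adjusted p = 0.158) and Larp1, which binds the TOP motif, by 0.07 ± 0.10 (adjusted p = 0.716).

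Of 29 other genes whose mRNAs carry a TOP motif, 2 rose and 1 fell. Snhg1, a host of small nucleolar RNAs, rose by 1.14 ± 0.13 and Vim, the intermediate filament protein vimentin, by 0.46 ± 0.09. Slc25a5, the ADP/ATP carrier of mitochondria, fell by 0.61 on the log2 scale. Of 72 genes of ribosome biogenesis, 2 rose and 3 fell, among them Nop14 (0.73 ± 0.12), a small-subunit assembly factor, and Ubtf (-0.52 ± 0.13), the factor of ribosomal RNA transcription. Of 35 translation initiation factor genes, 3 rose and 1 fell. Eif2s2 rose by 0.61 ± 0.14 and Eif3k fell by 0.41 on the log2 scale. Of 15 chaperones and importers of ribosomal proteins, 0 rose and 1 fell, Bccip, by 0.60. Among 7 other ribosomal or ribosome-bound genes none passed, by limma, and Fau, which encodes a small-subunit protein as a fusion, differed by 0.16 ± 0.08 (adjusted p = 0.212), and Gnb2l1, the scaffold RACK1, by -0.01 ± 0.09.

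The mitochondrial ribosome has its own set of proteins. Of 77 genes of that set 0 rose and 27 fell, with a median difference of -0.35, where 4.98% of all genes rose, 10.5% fell and the median was -0.17. The cytosolic set had 0 and 2 of 84 and -0.08. With median-of-ratios scaling 1 of the 77 rose and 10 fell, with a median of -0.20, where 9.42% of all genes rose and 6.35% fell. With Rpph1 left out of the total the mitochondrial set held 0.449% ± 0.020 of TPM in Dfo XY and 0.558% ± 0.017 in control XY (SD, n = 3 each). The difference between the 2 sets was not tested.

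**Figure D4:**
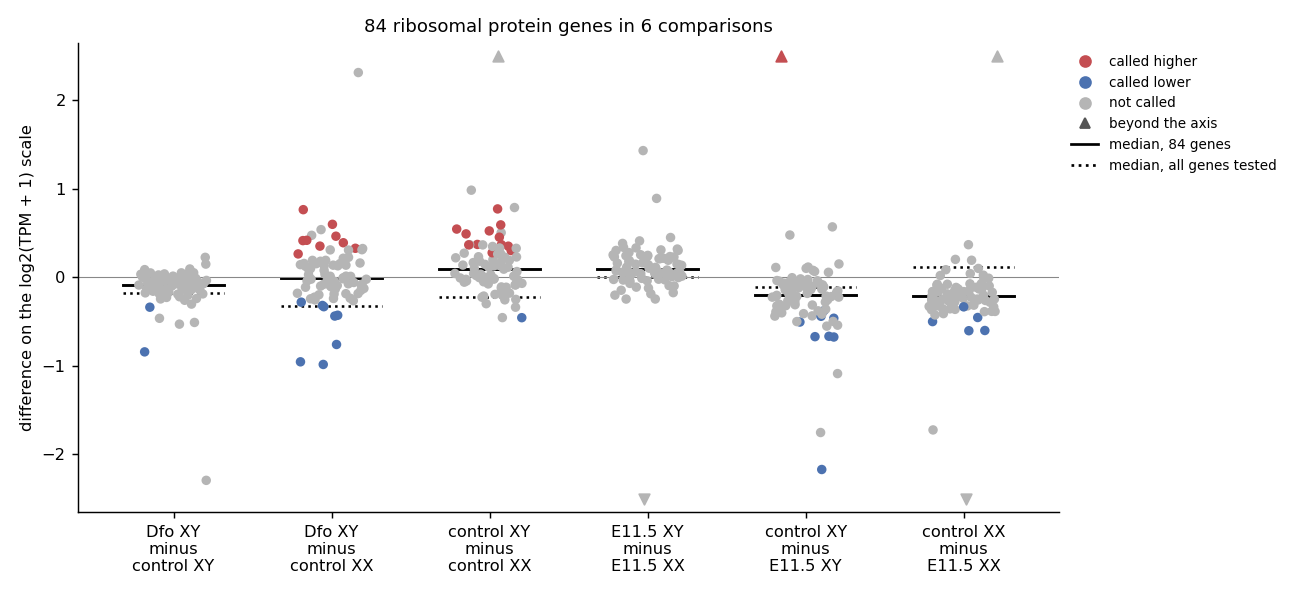
Difference of each of the 84 ribosomal protein genes on the log2(TPM + 1) scale in 6 comparisons; red and blue points passed limma at an adjusted p below 0.05, the solid line is the median of the 84 genes, the dotted line that of all genes tested, and triangles are values beyond 2.5. In Dfo XY against control XY the solid line is at -0.08 and 2 points are blue, while 9 are red and 8 blue against control XX, and the 2 lines lie apart in the comparisons with control XX.

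Between the cultured controls most calls were for higher levels in XY than in XX. Of the 84 genes 12 were higher and 1 lower in control XY than in control XX, where 2.97% and 22.2% of all genes were called higher and lower. The median difference was 0.10 for the 84 genes and -0.22 for all genes. The large subunit gave 8 of the higher genes and the small subunit 4. Rpl36, a large-subunit protein, had 3214, 2948 and 2665 TPM in control XY, against 1755 and 1680 TPM in control XX (difference 0.77 ± 0.15, limma, adjusted p = 0.00437). Rps14, a platform protein of the small subunit, had 1475, 1412 and 1405 TPM in control XY, against 876.6 and 1026 TPM in control XX (0.59 ± 0.13). Rpl37 was higher by 0.54 ± 0.12 and Rpl18 by 0.52 ± 0.11. None of these 4 overlap between the groups. Over the 84 genes 36 were higher without overlap and 7 lower, where 12.3% and 41.4% of all genes tested were so. The other 8 higher genes, named after their values were seen, were Rpl27, Rpl35, Rpl35a, Rpl37a, Rpl38, Rps12, Rps16 and Rps29, with differences of 0.28 to 0.49. Rpl7l1 had 51.2, 52.9 and 67.5 TPM in control XY, against 79.9 and 76.7 TPM in control XX, a difference of -0.46 ± 0.14 (limma, adjusted p = 0.0367).

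The genes that were higher in control XY were mostly short. Over 77 core genes the difference between control XY and control XX had a Spearman rho of -0.58 with coding length, over 15480 genes tested the rho with transcript length was -0.23, and genes are not independent. Of the 38 genes with a coding length under 471 bases, 11 were higher and the median difference was 0.23, while of the 39 longer ones 1 was higher and the median was 0.00. Between E11.5 XY and E11.5 XX the rho was also negative, -0.60, with medians of 0.20 and 0.04, and by limma no gene passed. Over all genes the rho with transcript length was -0.06 in that comparison. For Dfo XY minus control XY the rho was 0.08 for the core genes and 0.12 for all genes. Coding length and transcript length are unlike measures, so the rho of the core genes and that of all genes are not directly comparable. Library length profiles, RNA quality and depth are unknown from TPM, and their part in this pattern was not tested.

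**Figure D5:**
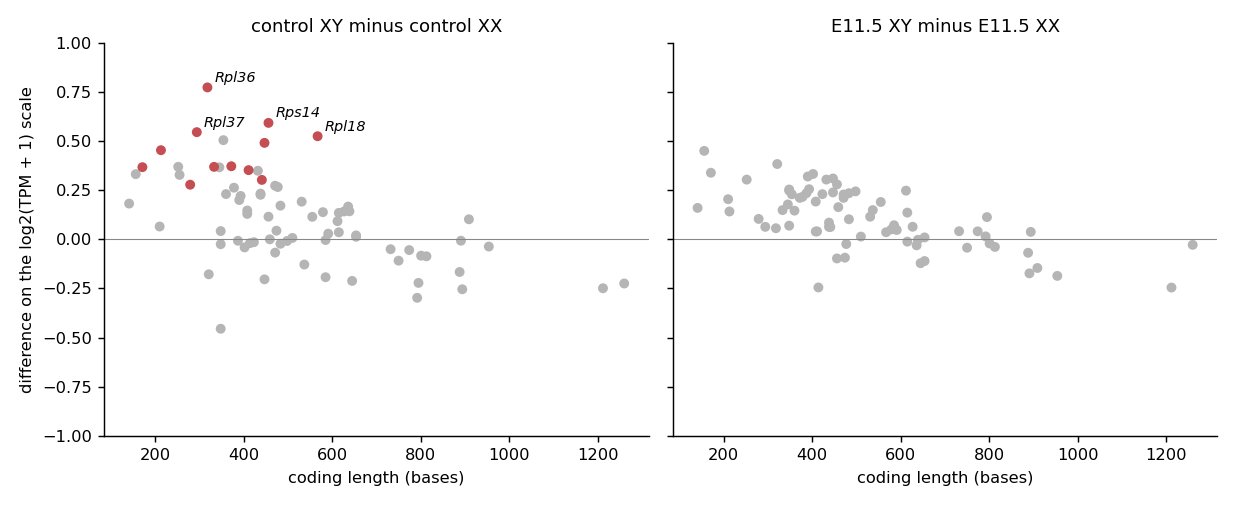
Difference between XY and XX on the log2(TPM + 1) scale against coding length in bases for the core ribosomal protein genes, in cultured controls (left) and at E11.5 (right), with genes called higher in red; 1 gene, Rps27, lies outside the axis at E11.5. Short genes lie higher in both panels, with rho of -0.58 on the left and -0.60 on the right, and 12 genes passed the test on the left and 0 on the right.

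The scaling and the number of XX libraries bear on this comparison. With Rpph1 left out of the total 27 genes were higher and 0 lower, where 3.31% and 9.38% of all genes were called, and the median of all genes was -0.06. With median-of-ratios scaling 37 were higher and 0 lower, where 3.28% and 3.09% of all genes were called, and the median of all genes was 0.07. With the near-identical replicates 1 and 2 averaged 4 were higher and 0 lower. Without control XX replicate 1, the count of higher genes was 2 by limma, Rpl36 (adjusted p = 0.0326) and Rpl18 (0.0473), while Rps14 (0.0787) and Rpl37 (0.0802) no longer passed. Leaving out control XX replicate 2 gave 5, control XY replicates 1 and 2 gave 7 and 5, and Dfo XY replicate 1 gave 8. Leaving out either control XX library, Dfo XY replicate 1, or control XY replicate 1 or 2 ended the 1 lower call. Without control XY replicate 3, 6 were lower. For libraries averaged or left out the share of all genes called is not given. Those counts are therefore no result about the ribosomal protein genes. Across the other lists, control XY had 0 higher and 27 lower of 72 ribosome biogenesis genes than control XX, 0 higher and 20 lower of 35 initiation factor genes, 0 and 11 of 29 TOP genes, and 6 and 3 of 77 mitochondrial ribosomal genes, where 2.97% of all genes were called higher and 22.2% lower. With median-of-ratios scaling these counts were 0 and 2, 1 and 3, 3 and 2, and 9 and 0, where 3.28% and 3.09% of all genes were called. Beside this the 10 neural crest and neuron markers summed to 86.9 to 183.2 TPM in control XY and 36.4 to 52.8 TPM in control XX. The 10 mesonephric epithelium markers summed to 147.8 to 164.3 TPM in control XY and 70.5 to 100.4 TPM in control XX. Of these, Emx1 was at 0 in control XX replicate 1 and 2.41 TPM in replicate 2, against 0.43 to 1.67 TPM in control XY. Pax8 was at 16.0 and 37.2 TPM in control XX, against 18.9 to 20.6 TPM in control XY. The part of these markers was not tested.

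Against control XX, which differs in sex as well as in Dfo, Dfo XY had 9 genes higher and 8 lower, where 4.79% and 33.8% of all genes were called, and the medians were -0.01 for the 84 genes and -0.33 for all genes. This comparison shares the Dfo libraries with the first and the control XX libraries with the second. Rpl36 had 3006, 3376 and 2445 TPM in Dfo XY, against 1755 and 1680 TPM in control XX (difference 0.76 ± 0.15, limma, adjusted p = 0.00196). Rps14 was higher by 0.60 ± 0.13, Rpl37 by 0.46 ± 0.12 and Rps29 by 0.42 ± 0.11. Rps4l was lower by 0.95 ± 0.09 on the log2 scale and Rpl7l1 by 0.76 ± 0.14. Rpl36a had 1159, 1267 and 1674 TPM in Dfo XY, against 1848 and 1809 TPM in control XX (-0.44 ± 0.16, limma, adjusted p = 0.047). Rpl30 was called at -0.98 ± 0.33 (limma, adjusted p = 0.0317), but summed with Gm12191 it differed by 0.05 ± 0.14 (adjusted p = 0.798). Leaving out control XX replicate 1 ended the calls of Rpl37 (limma, adjusted p = 0.105), Rps29 (0.0511), Rpl36a (0.164) and Rpl30 (0.345). The counts higher and lower were then 2 and 2. Leaving out control XX replicate 2 ended those of Rps29 (limma, adjusted p = 0.0527) and Rpl36a (0.135), and the counts were 3 and 3. Of 25 alternatives, Rpl36a kept its call in 6 and Rpl30 in 11. The count of higher genes was 6 without Dfo XY replicate 2. That of lower genes was 2 without Dfo XY replicate 1 or 2. It was 5 without control XY replicate 1 or 2 or E11.5 XY replicate 1. Calls over all genes are not given for libraries left out, so these counts are no result about the 84 genes. With median-of-ratios scaling 54 were higher and 1 lower, where 11% and 8.74% of all genes were called, with a median of 0.47 for the 84 genes and 0.07 for all. Leaving out the 2 Dfo XY libraries with Xist leaves 1 Dfo XY library, so counts are not given for that setting.

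Between the sexes at E11.5, 0 of the 84 genes were called in either direction by limma, where 1.09% of all genes were higher and 1.2% lower in E11.5 XY. Of the 84 genes, 12 had an unadjusted p below 0.05. The share of all genes with such a p is not given here, so this count is no result about the 84 genes. The median difference was 0.09 for the 84 genes and 0.00 for all genes. Over the 84 genes the E11.5 XX libraries differed by a median of 0.18, against 0.08 between the E11.5 XY libraries, and leaving out E11.5 XX replicate 2 gave 1 call in each direction, against 0 for any other library. By limma, none of the 84 genes was called for the difference between the cultured and the E11.5 sex effects, where 0.192% of all genes were called higher and 1.14% lower. An unadjusted p below 0.05 was found for 7 of the 84 genes, again without the share of all genes. Without control XY replicate 3, 1 gene was called higher. This difference was 0.72 ± 0.23 for Rpl36 (limma, adjusted p = 0.11) and 0.49 ± 0.17 for Rpl18 (adjusted p = 0.131).

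Most calls between cultured controls and E11.5 gonads were for lower levels in culture, in both sexes. In XY, 8 genes were lower and 1 higher in control than at E11.5, where 3.04% and 2.62% of all genes were called, with a median of -0.20 for the 84 genes and -0.11 for all. With quantile normalization both medians were -0.02. The single higher gene was Rps27, which with Rps27rt differed by 0.59 ± 0.27 (limma, adjusted p = 0.213). Rps26 had 3789, 4033 and 4408 TPM in control XY, against 6740 and 6187 TPM in E11.5 XY (difference -0.67 ± 0.13, limma, adjusted p = 0.0148). Rpl36a was lower by 0.67 ± 0.16, with 1486, 1505 and 1885 TPM in control XY, against 2724 and 2442 TPM in E11.5 XY. Rpl27a had 423.7, 440.1 and 573.9 TPM in control XY, against 780.8 and 732.4 TPM in E11.5 XY (-0.67 ± 0.16). Rpl10l, a retrogene known from male germ cells, was listed at 1.29, 0 and 2.38 TPM in control XY, against 7.0 and 8.92 TPM in E11.5 XY, and the call ended with a pseudocount of 0.1 (limma, adjusted p = 0.172). The other 4, named after their values were seen, were Rpl4, Rpl12, Rpl28 and Rpl31, with differences of -0.38 to -0.51. Rpl30 summed with Gm12191 was lower by 0.54 ± 0.14 (limma, adjusted p = 0.04). Without control XY replicate 3 the count of lower genes was 26, and without Dfo XY replicate 3 it was 15. It was 0 without control XY replicate 1 or 2 or E11.5 XY replicate 1, and 1 without E11.5 XY replicate 2. How many of all genes were called in these settings is not given, so the counts are no result about the 84 genes.

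In XX, 5 genes were lower and 0 higher in control than at E11.5, where 1.71% and 7.36% of all genes were called, with a median of -0.21 for the 84 genes and 0.12 for all genes. Rpl28, a large-subunit protein, had 1285 and 1312 TPM in control XX, against 2010 and 1936 TPM in E11.5 XX (difference -0.60 ± 0.10, limma, adjusted p = 0.00377). Rpl28 was also lower in XY, by 0.38 ± 0.09, with 1287, 1355 and 1203 TPM in control XY, against 1633 and 1696 TPM in E11.5 XY. Rpl36 had 1755 and 1680 TPM in control XX, against 2278 and 2979 TPM in E11.5 XX (-0.60 ± 0.17), Rpl32 was lower by 0.50 ± 0.13 and Rps16 by 0.45 ± 0.11, and the last was Rps2 with -0.33 ± 0.09. The count of lower genes was 1 without either control XX library or E11.5 XX replicate 2. Leaving out control XY replicate 1 gave 2, and 3 were lower when control XY replicate 2, either E11.5 XY library or Dfo XY replicate 1 or 2 was left out. It was 9 without Dfo XY replicate 3 or E11.5 XX replicate 1 and 10 without control XY replicate 3. For libraries left out, the share of all genes called is not given, so these counts are no result about the 84 genes. With median-of-ratios scaling 25 were lower and 0 higher, where 2.34% and 2.94% of all genes were called, and the median was -0.40 for the 84 genes and 0.00 for all. The Rpph1 share and the erythroid markers given above differ between culture and E11.5 in both sexes. The 10 endothelial markers summed to 91.2 to 184.5 TPM in control XY, against 270.4 to 271.1 TPM in E11.5 XY, and to 138.7 to 147.9 TPM in control XX, against 365.1 to 410.3 TPM in E11.5 XX. The 10 macrophage markers summed to 81.7 to 145.7 TPM in control XY, against 29.6 to 47.8 TPM in E11.5 XY, and to 50.3 to 69.5 TPM in control XX, against 40.7 to 41.5 TPM in E11.5 XX, with Tyrobp at 0 in both control XX libraries. The part of these values in the differences was not tested.

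The balance within a pair of paralogues is not altered by dividing a library by another total. Rpl36al held 27.5% to 29.0% of its pair in control XY, against 18.4% and 18.7% in E11.5 XY, and 26.5% and 26.7% in control XX, against 20.2% and 20.99% in E11.5 XX. In both sexes every cultured library lay above every E11.5 library. The ratio of Rpl22l1 to Rpl22, whose proteins can replace each other, ran from 0.405 to 0.506 in control XY, against 0.396 and 0.524 in E11.5 XY, which overlap.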

How the data were processed

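The authors deposited TPM per gene symbol for each of 12 libraries. The submitters' processing notes name the mm10 build with RSEM, STAR 2.7.10b and R 4.1.2, and the libraries were made with a stranded SMART-Seq kit, per the labels' protocols. TPM hold no read depth, so the depth behind each value is unknown and no counting interval is given.

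From these values log2(TPM + 1) was tested with limma 3.58.1 (R 4.3.3), with 1 coefficient for each of 5 groups, a trend of variance on level and Benjamini-Hochberg adjustment over 16133 genes with at least 1 TPM in at least 2 libraries. Calls were made under an adjusted p of 0.05, and ± after a difference is its standard error. Copies were found with BLAST 2.17.0 on GENCODE M21 transcripts, promoters are from RefSeq on GRCm38.p6, and sums were made in Python 3.11.15.

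The ribosomal protein genes and all lists were chosen with earlier results of these data known. Genes named are the 8 called genes with the largest change in each direction in Dfo XY minus control XY, the 4 in each other comparison, the 5 genes with the highest and the 5 with the lowest means, the 5 with the widest range of group means, the stalk proteins, paralogues with their parents, and up to 4 called genes of each list. A few genes within this rule are not reported here by name. Same-numbered Dfo XY and control XY libraries deviated together over the genes tested (r of 0.21, 0.12 and 0.34, each above 0.1). On this ground the numbers were taken to pair them. Dfo XY replicate 1 with control XY replicate 2 (r of 0.18) and Dfo XY replicate 2 with control XY replicate 1 (0.14) also passed 0.1. Unlike-numbered pairs with a replicate 3 had r of -0.27 to -0.18. The threshold therefore does not settle a pairing by number for replicates 1 and 2. Alternatives were other scalings, pseudocounts and filters, the replicate block, libraries left out or averaged, and summed copies.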

Additional observations from a re-analysis of the deposited data

Results flagged for a closer look

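Xist, the RNA that coats the inactive X chromosome of XX cells, was present in 2 libraries labelled XY. It stood at 13.57 TPM in Dfo XY replicate 1 and at 24.56 TPM in Dfo XY replicate 2, against 0.28 TPM in Dfo XY replicate 3. In control XY it stood at 0.01 to 0.18 TPM, in E11.5 XY at 0.16 to 0.90 TPM, in control XX at 165.8 to 174.8 TPM and in E11.5 XX at 124.3 to 149.1 TPM. Xist is not a ribosomal protein gene and enters no comparison of the report, and its level in these libraries was above that of every other XY library. Leaving out both of them leaves 1 Dfo XY library, replicate 3. Against control XY, Rps4l was then lower by 0.85 on the log2 scale and Rpl14 by 0.26. A group of 1 library has no spread of its own, so counts of genes called are not given for this setting.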

How the results depend on the processing

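Counts are of the 84 ribosomal protein genes called by limma, higher then lower. The share of all genes called moves with the setting too. In control XY minus control XX, 22.2% of all genes were called lower, and 3.09% with median-of-ratios scaling. For most other settings, and for libraries left out here and above, that share is not given. Such counts alone are therefore no result about the 84 genes. With median-of-ratios scaling they were 1 and 1 in Dfo XY minus control XY, 54 and 1 in Dfo XY minus control XX, 37 and 0 in control XY minus control XX, and 25 lower in control XX minus E11.5 XX. With quantile normalization they were 1 and 1 in Dfo XY minus control XY, 22 and 1 in Dfo XY minus control XX, 0 lower in control XY minus control XX, and 3 lower in each of the culture comparisons with E11.5. Without Rpph1 in the total they were 30 and 2 in Dfo XY minus control XX, 27 and 0 in control XY minus control XX, and 10 lower in control XX minus E11.5 XX. With the ribosomal protein genes also left out of the total these became 37 and 2, 30 and 0, and 13 lower. Read depth is unknown from TPM, and what it limits could not be given.

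With the replicate number as a block, 7 genes were lower in Dfo XY minus control XY. In the other comparisons, where the numbers were not taken to pair the libraries, the block gave 0 and 0 in Dfo XY minus control XX and in control XY minus control XX. It gave 3 lower in control XY minus E11.5 XY and 0 lower in control XX minus E11.5 XX. Such a fit holds only the libraries of the 2 groups and leaves little to estimate spread from. In control XY minus control XX it also called 0 of 35 initiation factor genes, where 20 were lower without the block.

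With no filter the count was 1 lower in Dfo XY minus control XY, 4 lower in Dfo XY minus control XX, 7 higher in control XY minus control XX and 2 lower in control XX minus E11.5 XX. Without the trend of variance it was 1 lower in Dfo XY minus control XY, 2 lower in Dfo XY minus control XX, 5 and 0 in control XY minus control XX, and 1 lower in each culture comparison with E11.5. With only the groups compared, the lower counts were 1, 3 and 0 in these first 3 comparisons, and 1 and 0 against E11.5 in XY and XX. With replicates 1 and 2 averaged they were 1 lower, then 4 and 2, then 4 and 0, and 0 and 1 lower against E11.5. Counts without the 2 Dfo XY libraries with Xist are not given, since that setting leaves 1 Dfo XY library.

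Alternatives added after seeing the data left out the third library of control XY and of Dfo XY, or summed near-identical copies. The first gave 17 lower in Dfo XY minus control XX, 11 lower in control XY minus control XX, 2 higher at E11.5, 2 and 35 in control XY minus E11.5 XY, 1 and 21 in control XX minus E11.5 XX, and 3 and 6 for the difference between the sex effects. It keeps only replicates 1 and 2 of both groups. Over the genes tested these differed by medians of 0.13 and 0.14, against 0.26 to 0.27 from the third library. The libraries kept thus lay closer to each other at the median, though not for each gene. What this did to the counts was not tested, and the share of all genes called is not given. The second gave 0 higher in control XY minus E11.5 XY, where Rpl30 summed with Gm12191 was called lower.

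Leaving out 1 library at a time gave 1 to 2 lower in Dfo XY minus control XY, 2 to 13 higher and 2 to 11 lower in Dfo XY minus control XX, and 2 to 17 higher and 0 to 6 lower in control XY minus control XX. It gave 0 to 1 higher and 0 to 1 lower between the sexes at E11.5, 0 to 26 lower in control XY minus E11.5 XY, 0 to 1 higher and 1 to 10 lower in control XX minus E11.5 XX, and 0 to 1 higher for the difference between the sex effects.

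Of 1822 recomputed values of named genes, 1540 kept their direction and side of the threshold, 199 lost a call, 8 gained one and 75 changed sign. The cause was not tested. In Dfo XY minus control XY every gene that changed sign had missed the threshold to begin with. With median-of-ratios scaling these were Gnb2l1 0.14, Rpl11 0.15, Rpl22 0.051, Rpl23a 0.031, Rpl36al 0.079, Rpl37 0.071, Rpl7 0.14, Rplp0 0.097, Rplp2 0.078, Rps27 0.016, Rps27a 0.095, Rps4x 0.021, Rps6 0.024 and Rpsa 0.038, and the called Rpl36a was 0.045 in Dfo XY minus control XX. With quantile normalization they were Gnb2l1 0.10, Rpl11 0.15, Rpl36al 0.12, Rpl37 0.061, Rpl7 0.064, Rplp0 0.0067, Rps27a 0.073, Rps4x 0.041, Rps6 0.063 and Rpph1 -0.00. Without Rpph1 in the total they were Gnb2l1 0.055, Rpl11 0.067, Rpl7 0.056, Rplp0 0.0135 and Rps27a 0.012, and with the ribosomal protein genes also left out 0.052, 0.0645, 0.054, 0.011 and 0.009 for the same genes. Without the Dfo XY libraries with Xist they were Gnb2l1 0.060, Larp1 -0.052, Rpl10l 0.44, Rpl11 0.26, Rpl22 0.13, Rpl23a 0.083, Rpl30 0.025, Rpl36a 0.051, Rpl36al 0.11, Rpl7 0.11, Rplp0 0.018, Rplp2 0.018, Rps27rt 1.42 and Rps4x 0.13. With replicates averaged they were Rpl11 0.012 and Rps27rt 0.067, without the third libraries Rpl7 0.030 and Rps27 0.0675, and with copies summed Rps27 0.085, with the called Rpl30 at 0.052 in Dfo XY minus control XX. Over single libraries left out, Gnb2l1 ran from -0.051 to 0.012, Rpl11 from -0.13 to 0.10, Rpl22 from -0.21 to 0.055, Rpl22l1 from -0.0069 to 0.40, Rpl36al from -0.16 to 0.026, Rpl5 from -0.072 to 0.14, Rpl7 from -0.072 to 0.090, Rps27 from -0.64 to 0.57 and Rps27rt from -4.15 to 0.68.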
